A study of Mus musculus with 20 samples.

Results

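Colitis was compared with health in mice given neither probiotic nor cyclosporine on 8 of the 20 arrays of the series, the 4 titled colitis without treatment and the 4 titled healthy without treatment. The series' design names this treatment as saline, and these animals are called saline mice here. Each array measured total RNA from the middle part of the colon of 1 female C57BL/6JOlaHsd mouse about 11 weeks old. All mice had arrived at 7 weeks of age and lived 5 to a cage. The colitis mice, numbered 5, 6, 7 and 10, drank 3% dextran sulphate sodium (DSS, 40 kDa) for 5 days. The healthy mice, numbered 2, 4, 6 and 7, are labelled without DSS. The design names the mice of a group as biological replicates. The day of tissue collection for the saline mice is not given in the sources used here, and the cage of each mouse was not analysed here. In another 8 mice, healthy (4, 5, 6 and 7) or with DSS colitis (3, 5, 7 and 8), bacteria of the probiotic strains L930BB and IM386 were given together through a stomach tube. They share no array with the saline mice and served as a second set for the same contrast. The remaining arrays held 4 mice with DSS colitis given cyclosporine, which enter no contrast here. The spread behind every standard error and p-value was estimated over all 20 arrays, the probiotic and cyclosporine mice included.

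DSS is a sulphated polymer that injures the colonic epithelium from the lumen, so that bacteria reach the tissue below. The injured mucosa is known to fill with neutrophils, monocytes and lymphocytes, which make interleukin-1 and interferon-gamma, while surviving crypts repair the surface with cells that are less mature than the absorptive colonocytes they replace. Absorptive colonocytes normally take up sodium, chloride and water and burn the short-chain fatty acids made by the bacteria.

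Values are log2 expression, so that a difference of 1 is a 2-fold difference. They are given in the order healthy mice 2, 4, 6 and 7, then colitis mice 5, 6, 7 and 10, and changes are colitis minus healthy ± the standard error of the fit, with 4 mice a group. A gene was said to rise or fall if its limma test passed a Benjamini-Hochberg adjusted p of 0.05 over all 16739 genes tested. By that rule 1957 genes rose (11.7% of those tested) and 2404 fell (14.4%), together 26.1%. Counts of rises and falls in the gene lists below are to be read beside these shares. At least 2-fold were 322 rises (1.92%) and 135 falls (0.806%), and the median change over all genes was -0.03. Most changes were small: 1200 of the rises and 1854 of the falls were under 1.5-fold. The 4 arrays of colitis lay wholly above those of health in 1782 genes (10.6%) and wholly below them in 2336 (14%). The 9 genes with usable probe sets that mark colon tissue lay above the filter level on every array, and their mean level ran from 12.02 to 12.11 in health and from 11.62 to 11.82 in colitis. Of them the mucin Muc2 rose, and the surface enzyme Car1, the chloride exchanger Slc26a3, the keratin Krt8 and the muscle genes Myh11 and Acta2 fell.

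A pair of arrays stood apart from their groups. Colitis mouse 6 lay at 0.65 on the first principal component of all 20 arrays, where the other colitis mice lay between 19.96 and 35.26 and the healthy mice between -32.37 and -25.21. Healthy mouse 2 lay at 30.89 on the second component, against 1.34 to 7.39 for the other healthy mice. Without colitis mouse 6 there were 455 rises and 140 falls of at least 2-fold, without healthy mouse 2 there were 322 and 148, and without both there were 459 and 152.

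Clca4b and Plet1 had the largest rises of all genes that passed, and several further genes known from epithelium rose in all 4 colitis mice. Clca4b, a member of the family of calcium-activated chloride channel regulators, stood at 8.60, 5.00, 5.05 and 4.61 in the healthy mice and at 12.82, 12.55, 12.83 and 12.56 in the colitis mice. The 4 colitis mice were close to each other, whereas healthy mouse 2 was far above the other healthy mice. The change was 6.88 ± 0.73 (adjusted p = 3.94e-06) and was 7.80 without healthy mouse 2. The other 3 healthy mice lay below the filter level of 5.30, as did all healthy values of Sptssb, Il1a, S100a8, S100a9, Retnlg, Clec4e, Kynu and Mmp3 below, so that their changes rest on dim values in health. Plet1, a surface protein of epithelial progenitors, stood at 7.27, 7.06, 6.96 and 6.75 in health and at 11.18, 11.40, 12.63 and 12.10 in colitis, a change of 4.82 ± 0.35 (adjusted p = 1.24e-07). The groups were separated by more than the spread within either. Sptssb, a subunit of the enzyme that starts sphingolipid synthesis, lay near the lower end of the scale in health at 4.13, 3.97, 4.10 and 3.94. In colitis it reached 8.04, 7.43, 8.55 and 7.31, a change of 3.80 ± 0.29. Dhrs9, a retinol dehydrogenase, measured 8.48, 6.39, 6.10 and 6.06 in health and 9.63, 10.22, 10.15 and 10.30 in colitis (3.32 ± 0.43, or 3.89 without healthy mouse 2). Healthy mouse 2 was again the high one among the healthy mice, though still below each colitis mouse.

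Steap4, a metalloreductase that makes iron and copper ready for uptake, measured 6.64, 6.44, 6.30 and 6.74 in health and 9.26, 9.67, 9.43 and 9.13 in colitis. Colitis mouse 6, which stood apart over all genes, held its highest value, and the change of 2.85 ± 0.19 had the smallest p of all genes (adjusted p = 6.63e-08). Cd177, best known as a neutrophil surface glycoprotein, stood at 8.90, 8.01, 8.10 and 8.17 in health and at 10.58, 11.44, 11.47 and 11.11 in colitis (2.86 ± 0.21). It is on the list of neutrophil genes described further on, but its lowest colitis value was that of mouse 5, where S100a8, S100a9, Retnlg and Clec4e were lowest in mouse 6. Isx, an intestinal homeobox factor that controls vitamin A uptake, went from 6.77, 6.40, 6.48 and 6.32 to 8.60, 9.02, 9.13 and 8.53 (2.33 ± 0.24). It was the 1 of 19 transcription factors of the colonocyte that rose. Ddah1, which breaks down inhibitors of nitric oxide synthase, measured 8.44, 8.01, 7.61 and 8.01 in health and 9.91, 9.72, 9.93 and 9.86 in colitis (1.84 ± 0.16).

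Enzymes that make reactive oxygen and nitrogen rose in 9 of 11 tested members of their list, with a median change of 1.11. Nos2, the inducible nitric oxide synthase, stood at 6.69, 6.58, 5.62 and 6.18 in health and at 8.63, 9.56, 10.54 and 10.09 in colitis (3.44 ± 0.43, 10.8-fold). Duox2, which releases hydrogen peroxide at the epithelial surface, stood at 8.73, 8.51, 7.98 and 8.21 and at 9.91, 10.03, 10.22 and 10.01 (1.69 ± 0.15). Its 4 colitis values were nearly equal, mouse 6 included. Nox1, the superoxide-producing oxidase of the colonic epithelium, rose by 1.11 ± 0.20. Cybb, the oxidase subunit of phagocytes, rose by 1.79 and its partner subunits Ncf1 and Ncf4 by 1.17 and 1.07. The peroxidase Lpo, which is not on that list, went from 7.53, 7.27, 7.34 and 7.35 to 8.82, 8.95, 8.93 and 8.61 (1.45 ± 0.11). Of 15 antioxidant genes 2 rose (13.3%) and 3 fell (20%), beside 11.7% and 14.4% of all genes, with a median of 0.04. There was 1 rise without healthy mouse 4, 6 or 7 or colitis mouse 7 and with the 8 saline arrays alone. The cystine transporter Slc7a11 (1.82) and the haem oxygenase Hmox1 (0.75) rose, and Cat (-0.52), Sod1 (-0.35) and Gpx1 (-0.28), which remove peroxide and superoxide, fell.

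**Figure D1:**
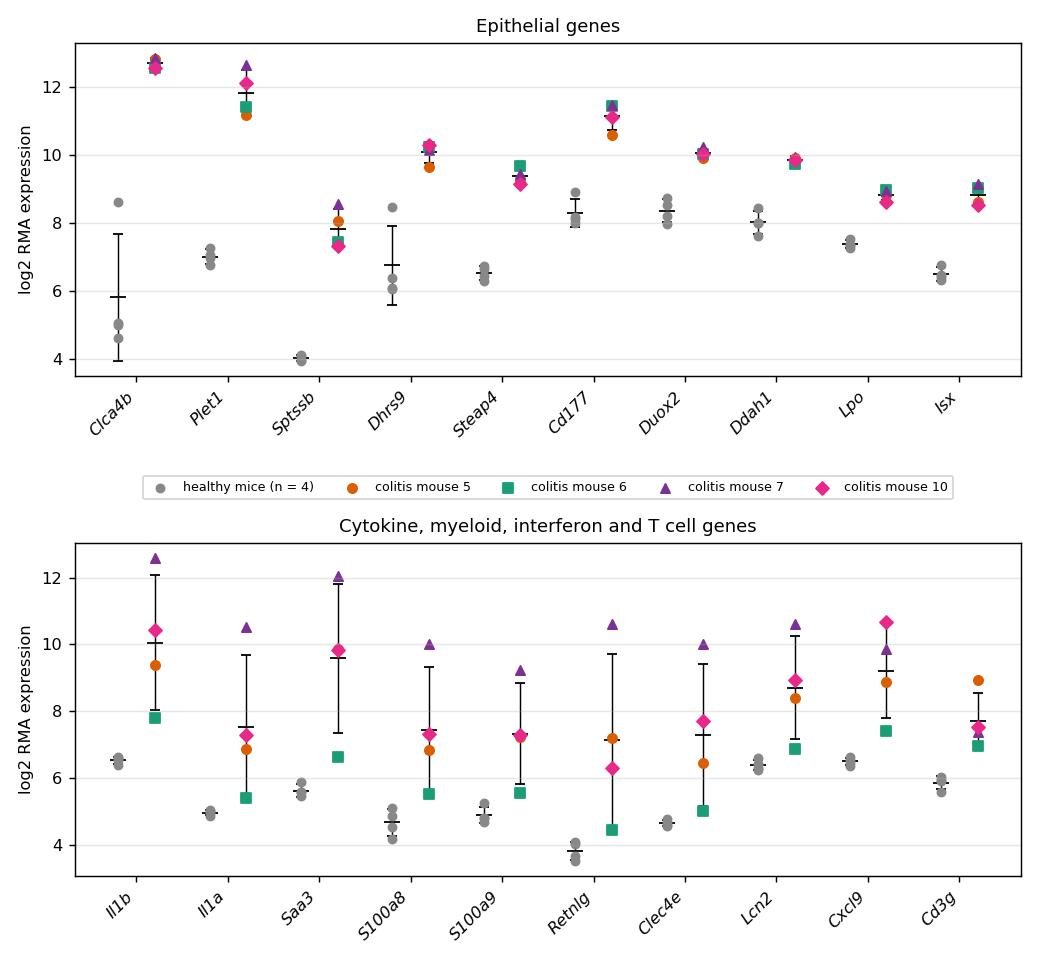
Expression of 20 genes in each saline mouse (vertical axis, log2 RMA expression; horizontal axis, gene). Grey points are the 4 healthy mice, coloured symbols the 4 colitis mice, and black bars the mean ± SD of each group. In the upper panel the colitis mice lie close together in most genes, as in Clca4b from 12.55 to 12.83. They are widest apart there in Plet1, from 11.18 to 12.63, and Sptssb, from 7.31 to 8.55. In the lower panel they spread out, as in Il1b from 7.80 in mouse 6 to 12.59 in mouse 7.

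Of 21 genes tested that mark regenerating epithelium 9 rose and 1 fell, with a median of 0.38. Besides Clca4b and Plet1 these were the stem cell surface gene Prom1 (1.29 ± 0.16), the hyaluronan receptor Cd44 (0.93), the growth factor Ereg (0.81), the cornified envelope gene Sprr1a (0.71), the collagen receptor Itga2 (0.71), the chaperone Clu (0.64) and the annexin Anxa1 (0.50 ± 0.09). The claudin Cldn4 fell by 0.59, a call that ended without healthy mouse 7. Crypt stem cell genes and targets of Wnt, the signal that keeps stem cells dividing, changed the other way, with 7 of 16 down, 3 up and a median of -0.31. Lgr5, the receptor that marks crypt base stem cells, measured 7.85, 8.08, 7.64 and 7.97 in health and 6.61, 6.50, 6.66 and 7.26 in colitis (-1.13 ± 0.20). The groups did not overlap, and colitis mouse 10 kept the highest value of its group. The stem cell factor Ascl2 (-0.71) and the Wnt feedback inhibitors Nkd1 (-0.61), Znrf3 (-0.46), Axin2 (-0.37) and Rnf43 (-0.31) fell too. The groups overlapped in all 22 cell cycle genes, which had a median of 0.25. Of the 22, 4 rose (18.2%, beside 11.7% of all genes), among them Top2a (0.54). The count was 0 without healthy mouse 6, colitis mouse 5 or colitis mouse 10 and with the 8 saline arrays fitted alone, and 2 without colitis mouse 7.

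Among antimicrobial proteins 12 of 20 tested rose and 0 fell, with a median of 1.09. Retnlb, a goblet cell protein that binds bacteria, measured 5.65, 5.34, 5.34 and 5.34 in health and 8.22, 8.80, 10.06 and 8.06 in colitis (3.36 ± 0.41, 10.3-fold). Its relative Retnla moved oppositely, from 5.42, 5.24, 5.69 and 5.82 to 3.08, 3.31, 3.92 and 4.06 (-1.95 ± 0.32), so that its colitis values lay below the filter level of 5.30. Slpi, which inhibits neutrophil proteases, went from 6.85, 6.39, 6.56 and 6.39 to 9.96, 8.59, 8.92 and 8.15 (2.36 ± 0.27). Pla2g2a encodes a bactericidal phospholipase of Paneth cells in other strains, but the annotation lists it as a transcribed pseudogene, and the gene is known to be disrupted in C57BL/6 mice. Its transcript measured 8.34, 6.57, 5.77 and 6.22 in health and 8.43, 8.45, 9.64 and 9.10 in colitis (2.18 ± 0.43, or 2.71 without healthy mouse 2). For Pla2g2a healthy mouse 2 was only just below the lowest colitis mouse. The protease Mmp7, another Paneth cell gene, rose by 1.52 ± 0.28. With Ada, Pla2g2a and Mmp7 were the 3 of 14 Paneth cell and small intestine genes that rose. These are 21.4%, beside 11.7% of all genes, and 1 of the 14 fell (7.14%, beside 14.4%). The lectin Reg3b (1.17) and the antibody carrier Pigr (0.02) did not pass.

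Mucus genes changed less, with 8 of 18 up, 1 down and a median of 0.22. Muc2, the gel-forming mucin, rose by 0.32 ± 0.07, the membrane mucin Muc1 by 0.84 ± 0.15 and the goblet cell gene Spink4 by 1.34 ± 0.19, whereas the membrane mucin Muc3 fell by 0.21 ± 0.05. The goblet cell peptide Tff3 (-0.04) and the mucus protein Clca1 (-0.13) did not pass. Enzymes that build mucin sugars split: 7 of 20 rose and 2 fell. B4galnt2, a sugar transferase, stood at 10.27, 10.94, 10.92 and 10.89 in health and at 11.79, 11.79, 11.88 and 11.92 in colitis (1.09 ± 0.19). C1galt1, which makes the core of most mucin sugars, rose by 0.60 ± 0.08, and Galnt3, which adds the first sugar, rose by 1.07 ± 0.13. St3gal4, a sialyltransferase, dropped from 10.84, 10.75, 10.81 and 10.86 to 9.90, 9.76, 9.46 and 10.03 (-1.02 ± 0.13). B3gnt7, which extends the chains, fell by 0.72 ± 0.14. Of 21 genes of the unfolded protein response, which expands folding capacity in secretory cells, 14 rose and 0 fell, with a small median of 0.30. Examples were the chaperones Hspa5 (0.58 ± 0.12) and Hsp90b1 (0.55 ± 0.07).

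Cytokine and neutrophil genes rose very unevenly between mice. Since the tissue was measured in bulk, fewer or more cells of a type and less or more RNA per cell cannot be told apart. Il1b, a cytokine released by activated macrophages and neutrophils, measured 6.54, 6.60, 6.39 and 6.64 in health and 9.40, 7.80, 12.59 and 10.43 in colitis (3.51 ± 0.71, adjusted p = 0.00135). Every colitis mouse was above every healthy one, but mouse 6 lay nearer to health than to mouse 7. Saa3, an acute phase protein, measured 5.90, 5.59, 5.58 and 5.47 in health and 9.86, 6.63, 12.04 and 9.84 in colitis (3.95 ± 0.97, adjusted p = 0.00529). Retnlg, a neutrophil hormone of the resistin family, went from 4.05, 4.09, 3.68 and 3.53 to 7.21, 4.46, 10.60 and 6.32 (3.31 ± 1.02, adjusted p = 0.0217). The same order of mice, 6 lowest and 7 highest, held in all 3.

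In the interleukin-1 family 8 of 15 tested genes rose and 0 fell, with a median of 0.64, and 4 rose when colitis mouse 7 was left out. Il1a stood at 5.01, 4.96, 5.05 and 4.88 in health and at 6.89, 5.42, 10.51 and 7.29 in colitis (2.56 ± 0.76, adjusted p = 0.018). Without colitis mouse 7 its change was 1.56 and no longer passed. Il18bp, which neutralises interleukin-18, rose evenly instead, from 7.58, 7.53, 7.77 and 7.47 to 8.14, 8.08, 8.22 and 8.52 (0.65 ± 0.12). Il1f9, an epithelial relative of interleukin-1, did not pass, its values being 3.82, 3.87, 3.93 and 3.46 in health and 4.58, 3.78, 7.97 and 5.66 in colitis. Colitis mouse 6 lay within the healthy range there. The inflammasome genes Nlrp3 (0.79) and Casp1 (-0.04) did not pass either.

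Of the interleukin-6 family 4 of 10 rose, these being the oncostatin receptor Osmr (1.44 ± 0.21), the feedback inhibitor Socs3 (1.15) and the signalling genes Jak2 (0.47 ± 0.07) and Stat3 (0.40). Only 2 of them passed in the fits without healthy mouse 4, 6 or 7 and without colitis mouse 5 or 7. Jak2 was nearly constant in colitis, at 10.32, 10.22, 10.31 and 10.31 against 9.74, 9.88, 9.86 and 9.79 in health. Of 11 genes listed for the interleukin-17 and interleukin-22 axis 3 rose, the chemokine receptor Ccr6 (1.26) most, and Il17re fell by 0.46. Without colitis mouse 5 there was 1 rise. Chemokines that draw neutrophils rose in 4 of 8 cases, with a median of 1.11. The epithelial chemokine Cxcl5 measured 7.17, 6.68, 6.25 and 6.27 in health and 8.65, 7.71, 9.35 and 8.75 in colitis (2.02 ± 0.47), and the receptor Cxcr2 rose by 1.53. Between 1 and 2 of the 4 passed without colitis mouse 7, without colitis mouse 10 or without healthy mouse 4, 6 or 7.

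The neutrophil list held 19 tested genes, of which 11 rose and 0 fell, with a median of 1.40. Its mean level ranged from 5.61 to 5.77 in health and from 6.12 to 8.75 in colitis. S100a8, an antimicrobial calcium-binding protein of neutrophils, measured 4.89, 5.11, 4.56 and 4.20 in health and 6.86, 5.54, 10.01 and 7.34 in colitis (2.75 ± 0.82, adjusted p = 0.0186). Its partner S100a9 measured 4.71, 4.83, 4.82 and 5.27 and then 7.24, 5.56, 9.25 and 7.29 (2.43 ± 0.66). Clec4e, a receptor for microbial glycolipids, measured 4.80, 4.58, 4.69 and 4.60 and then 6.47, 5.01, 10.02 and 7.70 (2.63 ± 0.86, adjusted p = 0.0295). Colitis mouse 7 was far above the others in each, and colitis mouse 6 lay just above the healthy mice. Without colitis mouse 7 the list had 2 rises, and S100a8 (1.89), Retnlg (2.16) and Clec4e (1.73) were among the genes that did not pass. Without healthy mouse 2, 4, 6 or 7 or colitis mouse 10 the count was 5 to 7. The granule protein genes Mpo (0.22) and Elane (-0.03), which neutrophils transcribe mainly in the bone marrow, did not pass, nor did the surface gene Ly6g (-0.07).

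Secreted iron-binding and acute phase proteins had the same highest and lowest mouse. Lcn2, which traps bacterial iron carriers, went from 6.43, 6.25, 6.30 and 6.60 to 8.41, 6.88, 10.61 and 8.95 (2.32 ± 0.59). Hp, which binds haemoglobin, went from 6.38, 6.20, 6.47 and 6.48 to 9.39, 8.06, 10.54 and 8.47 (2.73 ± 0.50). Serpina3n, a protease inhibitor, went from 8.33, 8.57, 8.33 and 8.45 to 11.61, 10.11, 12.44 and 10.83 (2.83 ± 0.35). In all 3 no colitis value overlapped the healthy ones, mouse 7 was highest and mouse 6 lowest. Lrg1, a glycoprotein of the acute phase, rose by 2.25 ± 0.40. The chemokine Ccl3 and the itaconate-making enzyme Acod1 showed the same spread without passing. Acod1 stood at 5.93, 5.73, 5.64 and 5.40 in health and at 6.64, 5.85, 11.14 and 8.71 in colitis (2.41 ± 0.90, adjusted p = 0.0543), and passed without colitis mouse 6 (3.16) or colitis mouse 5 (2.90). Ccl3 reached 11.31 in mouse 7 and 5.74 in mouse 6, below the healthy mean of 5.97, and passed without mouse 6 (2.57).

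Genes induced by interferon-gamma rose almost as a whole, 15 of 17 with 0 falls, with a median of 1.69. Here colitis mouse 10 led, with a median difference of 2.51 from the healthy mean, against 1.71 in mouse 7, 1.21 in mouse 5 and 0.83 in mouse 6. Cxcl9, a chemokine for activated T cells, stood at 6.56, 6.63, 6.38 and 6.45 in health and at 8.87, 7.42, 9.86 and 10.67 in colitis (2.70 ± 0.56). Gbp4, a guanylate-binding protein that attacks intracellular microbes, stood at 4.97, 5.21, 5.64 and 5.41 and at 7.82, 6.24, 7.78 and 8.78 (2.35 ± 0.43). Ido1, which breaks down tryptophan, went from 7.15, 7.16, 6.82 and 6.93 to 8.62, 8.61, 8.96 and 9.79 (1.97 ± 0.35). Mouse 10 was highest in all 3, and colitis mouse 6 equalled mouse 5 in Ido1. The kynurenine enzymes that act after Ido1, Kynu and Kmo, rose by 1.18 ± 0.19 and 1.16 ± 0.19, both with mouse 5 highest. Cxcl10 rose by 1.71 ± 0.55 (adjusted p = 0.0274), a call that ended without colitis mouse 7 (1.37), colitis mouse 10 (1.39), healthy mouse 2 (1.65) or healthy mouse 7 (1.65). Ifng itself (0.18) and the factor Irf1 (0.39) did not pass.

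Genes of antigen presentation rose in 14 of 15 cases, with a median of 0.90. Tap1, the peptide pump of the class I pathway, stood at 8.24, 8.25, 7.92 and 8.16 in health and at 9.59, 9.14, 9.52 and 9.94 in colitis (1.40 ± 0.21). Nlrc5, which switches on class I genes, rose by 1.49 ± 0.22, and B2m, the class I light chain, by 0.57 ± 0.08. The class II chain H2-Ab1 stood at 10.64, 10.48, 10.51 and 10.49 in health and at 11.89, 10.92, 11.82 and 11.77 in colitis (1.07 ± 0.19). Colitis mouse 6 lay nearer to health than to the other colitis mice in H2-Ab1. Ciita, the class II switch, rose by 1.14 ± 0.24. The cell death genes Zbp1 (1.46 ± 0.22), Ripk3 (0.78 ± 0.20) and Mlkl (0.52 ± 0.13), which act in sequence in necroptosis, all rose, within a list in which 7 of 12 rose. Zbp1 measured 8.54, 7.84, 8.07 and 8.02 in health and 9.47, 9.33, 9.54 and 9.98 in colitis, so that mouse 6 was close to the others.

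The promoters of genes that rose were searched for the interferon-stimulated response element, the sequence read by interferon regulatory and STAT factors. A promoter here is the stretch from 250 bases before to 50 bases after a gene's start in RefSeq on the build GRCm38.p6, and it was searched on both strands for GAAA followed after any 2 bases by GAAA again. These letters occurred in 3.44% of 32851 promoters and in 3.63% of the 13103 tested genes with a promoter entry. Among genes at least 2-fold higher, 235 of 322 had an entry and 37 of them (15.7%) held the motif. Among genes at least 2-fold lower, 105 had an entry and 1 (0.952%) held it. For comparison, GGGANTTCC, a form of the NF-kB site, occurred in 2.98% and 2.86% of these genes against 2.45% of those tested. The gamma-activated site TTCCNGGAA occurred in 2.55% and 0.0% against 1.46%. The C/EBP letters TTGCNNAA occurred in 20.9% and 20.0% against 10.7%. The HNF4 letters CAAAGTCCA occurred in 1.7% and 0.952% against 0.527%, the first share being 4 of 235 genes. The CDX letters TTTATGG occurred in 2.55% and 3.81% against 2.4%. The interferon and antigen presentation lists had 21 members with an entry, 8 of them (38.1%) with the response element, 3 (14.3%) with the NF-kB letters and 2 (9.52%) with the gamma-activated site. Of the 8 with the response element, several are also among the genes at least 2-fold higher. The stretches below are the 150 bases before the start of 6 risen genes known from interferon responses or phagocytes, chosen after their values were seen, with every match or its reverse complement in capitals. They show where before the start the matches lie, and Igtp and Irgm2 carry similar stretches around theirs.
Igtp (chr11:58199406-58199555, plus strand): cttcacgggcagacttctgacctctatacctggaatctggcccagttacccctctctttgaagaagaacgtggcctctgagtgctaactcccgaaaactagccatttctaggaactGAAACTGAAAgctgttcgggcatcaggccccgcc
Irgm2 (chr11:58214827-58214976, plus strand): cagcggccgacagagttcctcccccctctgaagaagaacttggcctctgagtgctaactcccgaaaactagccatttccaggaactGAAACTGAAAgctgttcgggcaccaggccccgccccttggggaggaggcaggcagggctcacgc
Gbp3 (chr3:142559894-142560043, plus strand): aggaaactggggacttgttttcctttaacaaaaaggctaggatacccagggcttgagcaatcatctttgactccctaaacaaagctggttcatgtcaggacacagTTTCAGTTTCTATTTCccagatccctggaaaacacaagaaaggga
Ifit1 (chr19:34640739-34640888, plus strand): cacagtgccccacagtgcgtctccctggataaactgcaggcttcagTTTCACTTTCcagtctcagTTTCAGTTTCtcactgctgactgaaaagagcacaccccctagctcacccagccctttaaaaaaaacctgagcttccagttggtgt
Isg15 (chr4:156200819-156200968, minus strand): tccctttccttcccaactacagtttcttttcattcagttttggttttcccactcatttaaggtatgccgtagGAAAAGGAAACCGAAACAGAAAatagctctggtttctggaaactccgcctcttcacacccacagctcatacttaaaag
Cybb (chrX:9469325-9469474, minus strand): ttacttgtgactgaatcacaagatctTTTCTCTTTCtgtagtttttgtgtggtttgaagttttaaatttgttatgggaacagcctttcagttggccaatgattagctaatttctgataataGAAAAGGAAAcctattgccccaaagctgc
Igtp rose by 1.69, Irgm2 by 1.34 and Gbp3 by 1.33, all 3 being GTPases against intracellular microbes. The antiviral gene Ifit1 rose by 1.49 and the ubiquitin-like modifier Isg15 by 1.05. A match is a description of the letters and not a test of binding.

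The mean levels of the B cell and T cell lists were highest in colitis mouse 5. Of 17 B cell and plasma cell genes 12 rose, with a median of 1.11 and a mean level from 7.38 to 7.88 in health and from 8.09 to 9.34 in colitis. Cr2, the complement receptor of B cells and follicular dendritic cells, measured 6.60, 6.44, 6.07 and 5.80 in health and 9.94, 8.25, 8.26 and 8.63 in colitis (2.54 ± 0.45). Ms4a1, which encodes CD20, measured 7.91, 7.16, 6.71 and 6.06 and then 10.57, 8.51, 9.01 and 9.07 (2.33 ± 0.51). Cxcl13, the chemokine that gathers B cells into follicles, measured 9.97, 9.60, 9.60 and 9.10 and then 11.64, 11.04, 12.21 and 11.32 (1.99 ± 0.33). Mouse 5 was highest for Cr2 and Ms4a1 and mouse 7 for Cxcl13, and healthy mouse 2 was the highest healthy mouse for all 3. The part of these cells in the rise of the class II genes, which B cells carry too, was not tested. Of 14 T cell genes 10 rose, with a median of 0.78, 6 of them when the 8 saline arrays were fitted alone. Cd3g, a chain of the T cell receptor complex, stood at 5.96, 5.91, 5.58 and 6.03 in health and at 8.93, 6.96, 7.38 and 7.54 in colitis (1.83 ± 0.27). The helper T cell gene Cd4 rose by 0.98 ± 0.23 and the cytotoxic gene Cd8a by 0.71.

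Macrophage and monocyte genes rose in 10 of 20 cases, with a median of 0.52, and 1 fell. Mpeg1, a pore-forming protein of macrophages, went from 7.45, 7.32, 7.67 and 7.53 to 9.01, 8.26, 9.30 and 8.79 (1.35 ± 0.19). Ccr2, the receptor that brings monocytes out of the blood, went from 5.95, 6.36, 6.44 and 6.49 to 7.68, 6.90, 8.10 and 7.68 (1.28 ± 0.26). Folr2, a marker of resident macrophages, went down instead, from 7.47, 7.38, 7.50 and 7.51 to 7.07, 6.23, 6.70 and 6.17 (-0.92 ± 0.22). Its change in the probiotic mice (-0.39) did not pass. Other genes of resident macrophages, Cd163 (-0.02), Mrc1 (0.19) and Mertk (-0.34), did not pass. Dendritic cell genes rose in 6 of 12 cases, or 3 without colitis mouse 5. Complement genes rose in 7 of 13 cases, or 12 without colitis mouse 6. Within that list C4b (1.06) and C2 (0.78) had the largest rises.

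**Figure D2:**
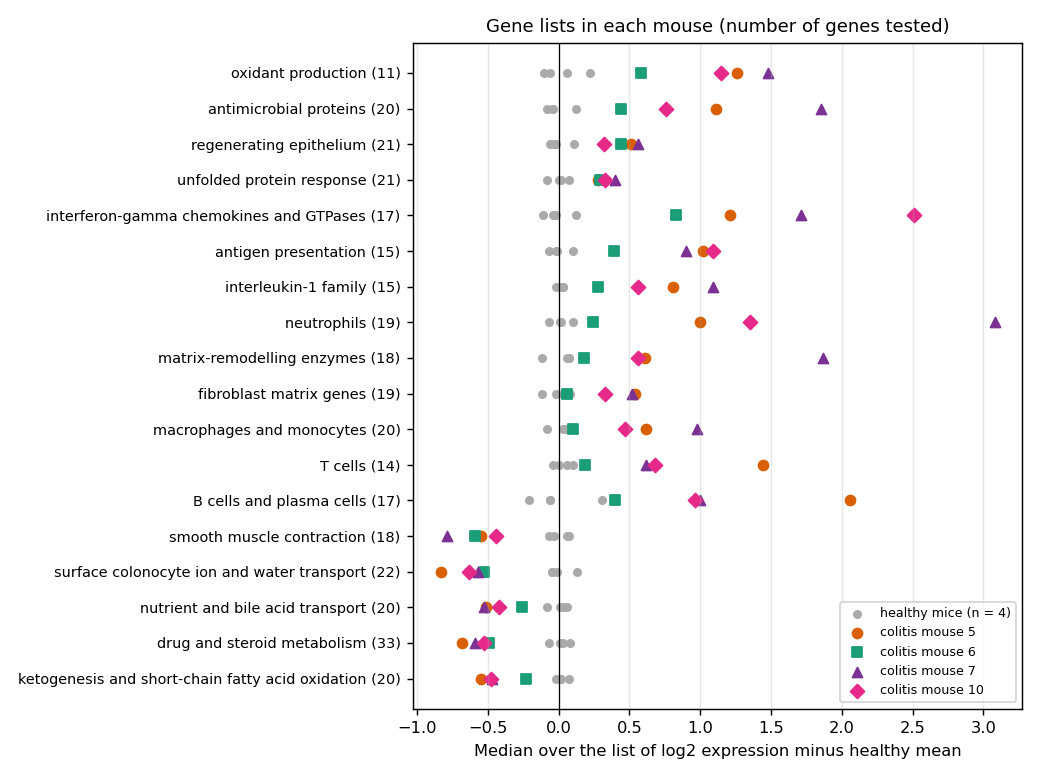
Median over each list of the difference from the healthy mean (horizontal axis, log2) in each saline mouse; lists are in rows with the number of genes tested. Grey points are the 4 healthy mice and coloured symbols the 4 colitis mice. For the neutrophil list the colitis mice run from 0.24 in mouse 6 to 3.08 in mouse 7, whereas for smooth muscle and drug metabolism all 4 lie close together below 0.

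Smaller groups of immune genes were mixed. Of 10 natural killer and innate lymphoid genes 3 rose, these being the cytokine receptor Il7r (1.31), the killing protease Gzmb (1.00) and the activating receptor Klrk1 (0.65). Of 8 mast cell and eosinophil genes 3 rose, Il5ra (1.18), Mcpt2 (1.02) and Cpa3 (0.84). Toll-like receptors, the sensors of microbial products, rose in 7 of 12 cases and fell in 1, and the chemokine family as a whole rose in 13 of 29 cases and fell in 1, with a median of 0.63. In the prostaglandin pathway the inducible cyclooxygenase Ptgs2 (1.57) and the leukotriene gene Alox5ap (1.31) rose and the degrading enzyme Hpgd (-0.53) fell. That pathway had 3 rises (21.4%) and 2 falls (14.3%) among 14 genes, beside 11.7% and 14.4% of all genes. It had 0 rises without healthy mouse 6 and 1 without healthy mouse 2, 4 or 7 or colitis mouse 7. It had 1 fall without healthy mouse 4, 6 or 7 or colitis mouse 5, 7 or 10. Of 14 coagulation and fibrinolysis genes 4 rose (28.6%, beside 11.7% of all genes) and 2 fell (14.3%, beside 14.4%). The urokinase receptor Plaur (1.34) and the plasminogen activator Plat (1.01) led the rises. There were 2 rises without colitis mouse 7, and 1 fall without healthy mouse 6 or 7 or colitis mouse 6.

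Matrix-remodelling enzymes were, like the neutrophil genes, highest in colitis mouse 7 and lowest in mouse 6. Both lists were written with Mmp8 and Mmp9 as members, so they are not fully separate. Of 18 matrix-remodelling enzymes 12 rose, with a median of 0.72, and 7 rose without colitis mouse 7 or with the 8 saline arrays fitted alone. The stromelysin Mmp10 measured 6.24, 6.04, 6.32 and 6.33 in health and 8.10, 6.66, 9.38 and 8.20 in colitis (1.85 ± 0.49). The related Mmp3 rose by 1.92 ± 0.52 and their inhibitor Timp1 by 1.40 ± 0.33. Lox, which cross-links collagen, went from 6.49, 6.51, 6.70 and 6.26 to 8.39, 7.25, 9.16 and 7.81 (1.66 ± 0.29). Fibroblast matrix genes rose in 11 of 19 cases and fell in 2, with a median of 0.39. Their mean level was highest in mouse 5 and overlapped between the groups, from 8.80 to 9.02 in health and from 8.95 to 9.39 in colitis, and 7 rose without colitis mouse 5 or 7. The fibrillar collagen Col1a1 (0.65 ± 0.15) and the basement membrane collagen Col4a1 (0.72 ± 0.13) rose. Among all 44 collagen genes 10 rose and 0 fell, and the median was -0.02.

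Signals from the stroma to the crypt went in both directions, 6 up and 5 down of 23. Grem1, an antagonist of bone morphogenetic proteins, stood at 9.34, 9.25, 9.38 and 9.44 in health and at 11.16, 9.81, 11.58 and 10.70 in colitis (1.46 ± 0.30). Chrdl1, another antagonist of the same signals, stood at 7.99, 8.13, 8.30 and 8.17 and at 7.59, 6.70, 7.21 and 7.08 (-1.0 ± 0.16). The ligands Bmp2 and Bmp4 fell by 0.66 each, and the growth factors Nrg1 (1.00), Igf1 (0.85) and Hgf (0.78) rose. Of the 5 falls 2 or 3 passed in the fits without healthy mouse 4, 6 or 7 or without colitis mouse 6, 7 or 10. Endothelial and leukocyte adhesion genes rose in 6 of 18 cases, 10 without colitis mouse 6 and 3 with the 8 saline arrays alone. Vcam1, which holds leukocytes to the vessel wall, went from 7.01, 7.23, 7.19 and 7.13 to 9.02, 7.73, 9.46 and 8.49 (1.54 ± 0.25). Selp, which makes them roll, rose by 1.45 ± 0.40 and Icam1 by 0.89 ± 0.22. The endothelial markers Kdr (0.24), Tie1 (0.09) and Vwf (0.16) did not pass.

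Falls were smaller and more even between mice than the inflammatory rises. The largest was that of Mptx1, a mucosal pentraxin of the colon, at 11.55, 11.19, 11.26 and 11.53 in health and 6.62, 6.20, 7.65 and 8.24 in colitis (-4.20 ± 0.52, 18.4-fold lower). Slc37a2, a sugar phosphate exchanger, went from 10.81, 11.55, 11.58 and 11.74 to 8.55, 8.45, 7.42 and 8.37 (-3.22 ± 0.33, 9.34-fold lower). Sycn, a secretory granule protein, went from 12.32, 12.21, 12.48 and 12.39 to 9.80, 10.41, 9.93 and 10.29 (-2.24 ± 0.18, adjusted p = 1.58e-07). No colitis value reached the healthy range in any of the 3, and mouse 6 was the lowest for Mptx1 and the highest for Sycn. The secreted protease inhibitor Wfdc2 fell by 1.57 ± 0.14, from 9.03, 8.80, 8.82 and 9.12 to 7.18, 7.72, 7.06 and 7.54. The gasdermins Gsdmc2 (-1.77 ± 0.32) and Gsdmc3 (-1.58 ± 0.27), pore-forming proteins whose near-identical neighbours can share probes, fell together.

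Ion and water transport by surface colonocytes fell in 14 of 22 genes, with 1 rise and a median of -0.70. Fxyd4, a regulator of the sodium pump, measured 9.76, 9.71, 9.83 and 9.97 in health and 8.87, 7.74, 7.41 and 6.70 in colitis (-2.14 ± 0.29). Aqp8, a water channel, measured 10.65, 10.37, 10.35 and 10.60 and then 8.58, 9.30, 9.13 and 8.71 (-1.56 ± 0.20). Slc26a3, which exchanges chloride for bicarbonate, measured 13.17, 13.12, 12.98 and 13.13 and then 11.62, 11.77, 12.04 and 12.26 (-1.18 ± 0.16). Fxyd4 alone of the 3 was widely spread over the colitis mice. The carbonic anhydrases Car1 (-1.26 ± 0.12), Car4 (-1.03 ± 0.17) and Car2 (-0.92) fell, as did the sodium channel subunit Scnn1a (-0.68 ± 0.08), while its partners Scnn1b (0.19) and Scnn1g (0.46) did not pass. The 1 rise was that of Slc12a2 (0.49 ± 0.11), the basolateral chloride loader of secreting cells. Its change in the probiotic mice (0.10) did not pass. Trpm6, a magnesium channel outside the list, fell from 10.51, 10.92, 10.60 and 10.86 to 9.06, 9.23, 8.84 and 9.35 (-1.60 ± 0.25).

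**Figure D3:**
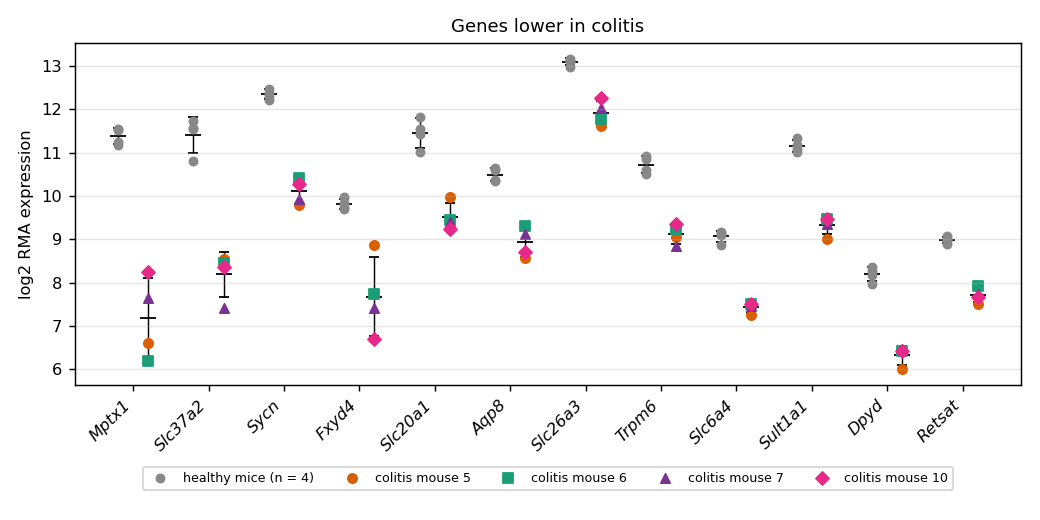
Expression of 12 genes that were lower in colitis, in each saline mouse (vertical axis, log2 RMA expression; horizontal axis, gene). Grey points are the 4 healthy mice, coloured symbols the 4 colitis mice, and black bars the mean ± SD of each group. The groups do not overlap in any of the 12, and the colitis mice are widest apart in Fxyd4 and Mptx1.

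Nutrient transporters fell in 11 of 20 cases and rose in 3, with a median of -0.39. Slc20a1, a phosphate transporter, measured 11.01, 11.43, 11.56 and 11.83 in health and 9.99, 9.46, 9.40 and 9.25 in colitis (-1.93 ± 0.23). Slc15a1, the carrier of small peptides, fell by 1.25 ± 0.16, and the carriers of short-chain fatty acids Slc16a1 and Slc5a8 fell by 0.76 ± 0.10 and 0.65 ± 0.14. The 3 that rose were the paired cystine transporter chains Slc7a9 (1.26 ± 0.16) and Slc3a1 (0.54) and the lactate exporter Slc16a3 (0.52). Slc7a9 stood at 6.29, 6.17, 6.35 and 6.44 in health and at 8.20, 7.57, 7.22 and 7.33 in colitis. Slc6a4, which clears serotonin from the mucosa, dropped from 9.16, 8.87, 9.14 and 9.11 to 7.25, 7.51, 7.46 and 7.50 (-1.64 ± 0.17). The serotonin-making enzyme Tph1 (-0.83 ± 0.19) and the granule protein Chga (-0.71 ± 0.12) of enteroendocrine cells fell as well. Of 18 enteroendocrine and tuft cell genes 4 fell (22.2%, beside 14.4% of all genes) and 2 rose (11.1%, beside 11.7%). Of the 4 falls, 2 passed without colitis mouse 6 or 7. Over all 319 solute carriers tested 77 fell (24.1%) and 32 rose (10%).

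Drug and steroid metabolism fell in 21 of 33 genes with 0 rises and a median of -0.57. Cyp2c69, a cytochrome P450, measured 5.75, 7.93, 6.43 and 7.46 in health and 4.53, 4.19, 2.95 and 4.42 in colitis (-2.87 ± 0.51), values in colitis that lie below the filter level. Sult1a1, which sulphates phenols, measured 11.09, 11.17, 11.02 and 11.35 and then 9.02, 9.47, 9.35 and 9.47 (-1.83 ± 0.23). Dpyd, which breaks down pyrimidines, measured 7.98, 8.27, 8.19 and 8.37 and then 6.00, 6.42, 6.47 and 6.43 (-1.87 ± 0.14, adjusted p = 1.24e-07). The glutathione transferase Gstm3 (-1.66 ± 0.21), the esterase Ces1f (-1.88 ± 0.20) and the drug efflux pump Abcb1a (-1.16 ± 0.19) fell. Of 55 cytochrome P450 genes 20 fell and 3 rose. In retinoid handling Retsat, a retinol saturase, fell from 8.96, 9.01, 8.90 and 9.08 to 7.52, 7.92, 7.75 and 7.66 (-1.27 ± 0.10) and the retinol carrier Rbp2 fell by 0.89 ± 0.12, whereas Dhrs9 and Isx rose as described.

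Oxidation of fatty acids and ketone synthesis fell in 16 of 20 genes with 0 rises and a median of -0.41, all 20 being lower on average. Acss2, which activates acetate, measured 9.80, 9.97, 10.03 and 9.92 in health and 8.80, 9.45, 8.73 and 8.92 in colitis (-0.95 ± 0.13). Acads, which acts on butyrate-length chains, measured 9.75, 9.70, 9.55 and 9.71 and then 9.0, 9.47, 8.96 and 9.01 (-0.57 ± 0.12). In both, colitis mouse 6 lay closest to health. Acadvl, for very long chains, fell by 0.51 ± 0.06 and the lipid receptor Ppara by 0.48 ± 0.09. In the respiratory chain 22 of 42 complex I genes fell and 1 rose (median -0.22), 4 of 7 complex III genes fell (-0.23), 6 of 15 complex IV genes fell (-0.21) and 4 of 15 ATP synthase genes fell (-0.17). Cytosolic ribosomal proteins moved little, with 6 of 58 down (10.3%, below the 14.4% of all genes) and a median of -0.04. Glycolysis and hypoxia genes gave 3 rises (15%) and 2 falls (10%) of 20, beside 11.7% and 14.4% of all genes. Pfkfb3 (1.07) was the largest rise. The rises numbered 6 without healthy mouse 2 and 1 without colitis mouse 7.

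Among transcription factors of the colonocyte 6 of 19 fell, 3 without colitis mouse 5. Nr5a2, a nuclear receptor of intestinal steroid synthesis, fell by 0.82 ± 0.17, and Vdr, the vitamin D receptor, by 0.77 ± 0.12. Vdr stood at 11.37, 11.60, 11.70 and 11.66 in health and at 10.80, 10.73, 10.93 and 10.78 in colitis. The identity factors Cdx1 (-0.21) and Cdx2 (-0.01) did not pass. Tight junction genes fell in 6 of 23 cases and rose in 2 (1 without healthy mouse 6 or colitis mouse 6 or 7, or with the 8 saline arrays alone), with Ocln (-0.49) and Tjp1 (-0.25) among the falls.

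The arrays carry probe sets at microRNA genes, which read the precursor transcript and not the mature microRNA. The locus of Mir192, an abundant microRNA of the gut epithelium, measured 8.87, 8.87, 8.86 and 8.74 in health and 7.49, 8.18, 8.13 and 8.47 in colitis (-0.77 ± 0.19, adjusted p = 0.00542). That of Mir375, a microRNA of secretory and endocrine cells, measured 7.36, 7.14, 7.41 and 7.12 and then 6.89, 7.07, 6.87 and 6.65 (-0.39 ± 0.10, adjusted p = 0.00844). Both were chosen after their values were seen. The mature RefSeq sequences of both arms of miR-192 and of the 5p arm of miR-375 follow, with the seed that pairs with targets, bases 2 to 8, in capitals. These 3 share no seed. The 3p arm of miR-375 was not among the sequences read here, so its seed is not shown and was not compared. The arrays do not tell which arm of miR-375 is the active one, so the 5p seed shown need not be the one that acts.
mmu-miR-375-5p (chr1:74900696-74900717, minus strand, GRCm38.p6): gCGACGAGccccucgcacaaac
mmu-miR-192-5p (chr19:6264857-6264877, plus strand, GRCm38.p6): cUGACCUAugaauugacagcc
mmu-miR-192-3p (chr19:6264900-6264921, plus strand, GRCm38.p6): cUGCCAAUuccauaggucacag

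The muscle coat changed evenly downward. Of 18 smooth muscle contraction genes 17 fell and 0 rose, with a median of -0.60 and no overlap between groups in any of the 18. Mylk, the kinase that starts contraction, measured 8.23, 8.0, 8.30 and 8.23 in health and 7.52, 7.58, 7.06 and 7.42 in colitis (-0.80 ± 0.11). Casq2, a calcium store protein, fell by 1.14 ± 0.16, the myosin Myh11 by 0.62 ± 0.15 and the actin Acta2 by 0.46 ± 0.08. The mean level of the list ranged from 9.92 to 10.06 in health and from 9.16 to 9.52 in colitis. Its part in the other falls was not tested. Of 9 genes of the pacemaker cells 5 fell, such as the chloride channel Ano1 (-0.71 ± 0.13), and 2 rose, with 3 falls without healthy mouse 7 or colitis mouse 5. Of 16 neuronal and glial genes 6 fell and 3 rose. Snap25, a synaptic vesicle protein, went from 9.22, 9.24, 8.79 and 9.08 to 8.06, 8.26, 8.03 and 8.39 (-0.90 ± 0.13). Tac1, the precursor of substance P, went the other way, from 7.48, 7.06, 7.11 and 7.30 to 7.95, 8.22, 8.76 and 8.88 (1.22 ± 0.24). Vip, a relaxing neuropeptide, rose by 0.70 ± 0.18. In the probiotic mice Tac1 rose by 1.48, and the change of Vip (0.15) did not pass.

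Handling and timing genes were examined for differences that could run with the groups. Of 16 immediate early genes, which respond within minutes of death or dissection, 1 rose (Jun, 0.37), which did not pass without healthy mouse 2. Of 5 erythrocyte and platelet genes tested 0 passed, although the groups did not overlap in 1 of them. Another 5 of the 10 listed had no usable probe set, so blood content was only partly covered. Clock genes differed: 6 of 15 fell and 1 rose. Nr1d1, a repressor in the clock, measured 10.14, 10.02, 10.47 and 10.45 in health and 8.61, 7.89, 8.64 and 9.31 in colitis (-1.66 ± 0.21), and the clock output gene Dbp fell by 1.17 ± 0.24 while Cry1 rose by 0.57 ± 0.10. The hour of tissue collection is not given in the sources used here. Of 9 reference genes often used for scaling 4 rose, most of all Gusb, at 8.49, 8.21, 8.20 and 8.13 in health and 9.04, 8.93, 9.03 and 8.81 in colitis (0.70 ± 0.11). Without healthy mouse 7 the count was 2. Actb (0.13) and Tbp (-0.04) did not pass.

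Mouse by mouse, the genes that rose at least 2-fold differed more between colitis mice than those that fell at least 2-fold. Over the 322 genes at least 2-fold higher, the median difference from the healthy mean was 1.76 in colitis mouse 5, 0.71 in mouse 6, 1.75 in mouse 7 and 1.33 in mouse 10. Over the 135 genes at least 2-fold lower it was -1.33, -1.15, -1.37 and -1.15. Mouse 6 had the smallest change of the 4 in 260 of the 322 risen genes and in 56 of the 135 fallen ones. The largest rise was in mouse 7 for 139 genes and in mouse 5 for 131. The range over the 4 colitis mice was under 1 log2 unit in 68 of 322 risen genes and in 115 of 135 fallen ones, and over 2 log2 units in 73 and 2. Every colitis mouse was at least 2-fold from the healthy mean in 65 of the risen and 51 of the fallen genes. These genes were chosen on the mean of the same mice, so that the values describe them and test nothing. Among lists, mouse 7 was highest for neutrophils (median difference 3.08, against 0.24 in mouse 6), mouse 10 for the interferon-gamma genes and mouse 5 for B cells (2.06) and T cells (1.44). Drug and steroid metabolism varied little, at -0.68, -0.49, -0.59 and -0.53 in mice 5, 6, 7 and 10. Some other falling lists were least changed in mouse 6, but not all. Smooth muscle was least changed in mouse 10 (-0.44, against -0.59 in mouse 6), and neurons and glia in mouse 5 (-0.17, against -0.24 in mouse 6). In the order 5, 6, 7 and 10, ketone synthesis and fatty acid oxidation stood at -0.55, -0.23, -0.47 and -0.48. Nutrient transport stood at -0.51, -0.26, -0.53 and -0.42. The transcription factors of the colonocyte stood at -0.41, -0.03, -0.17 and -0.12.

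The same contrast in the 8 probiotic mice gave 2280 rises (13.6%) and 2689 falls (16.1%). Both contrasts took the spread of each gene from the same fit over all arrays. Passing in the saline and in the probiotic mice is therefore not independent, although the mice are separate. All 322 genes that were at least 2-fold higher in the saline mice had the same sign there and 315 (97.8%) rose, with a median of 1.78 against 1.37. All 135 genes at least 2-fold lower had the same sign and 132 (97.8%) fell, with a median of -1.28 against -1.20. Of all 1957 rises and 2404 falls 70.8% and 67.8% were called the same way, and 2 and 1 the opposite way (Ccnl2, 0.19 and -0.20; Sos1, 0.23 and -0.20; Tmem67, -0.23 and 0.19). Plet1 measured 8.65, 7.54, 6.98 and 6.90 in probiotic healthy mice 4, 5, 6 and 7 and 12.81, 12.60, 12.71 and 11.60 in probiotic colitis mice 3, 5, 7 and 8 (4.91 ± 0.35). Over the 322 risen genes, probiotic colitis mouse 8 had a median difference of 1.16 from its healthy mean, where mice 3, 5 and 7 had 1.99, 1.98 and 1.93. Over the 135 fallen genes it had -0.81, against -1.35, -1.47 and -1.50, so that mouse 8 was the mildest of its group in both directions.

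**Figure D4:**
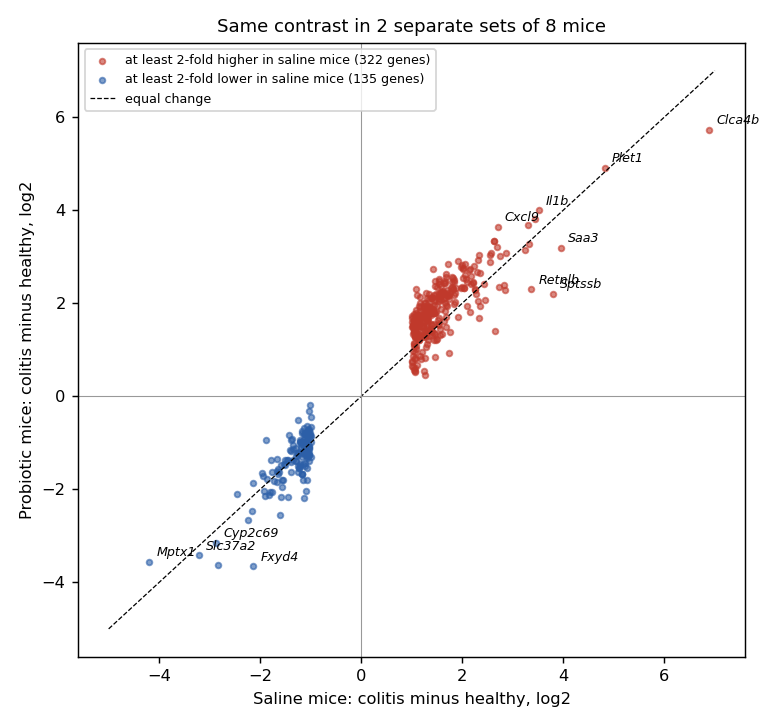
Change from health to colitis of the 322 genes at least 2-fold higher (red) and 135 at least 2-fold lower (blue) in saline mice, with the change in the 8 saline mice on the horizontal axis and in the 8 separate probiotic mice on the vertical axis (both log2). The dashed line marks equal change. No gene changes sign, and Fxyd4 (-2.14 and -3.65) lies below the line while Sptssb (3.80 and 2.20) lies to its right.

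The difference between the 2 contrasts was tested as an interaction, and limma called 0 of 16739 genes. The smallest adjusted p was 0.185, and 1446 genes had an unadjusted p under 0.05. Prdm1, which drives B cells to become plasma cells, had that smallest p, with changes of 0.50 in saline and 1.55 in probiotic mice. Aif1, a macrophage gene, had 0.44 and 1.40. Sptssb had 3.80 ± 0.29 and 2.20 ± 0.29, a difference of -1.60 ± 0.41 (adjusted p = 0.343). Fxyd4 had -2.14 ± 0.29 and -3.65 ± 0.29, a difference of -1.52 ± 0.41 (adjusted p = 0.343). The cystine transporter chain Slc7a9 had 1.26 ± 0.16 and 0.45 ± 0.16 (adjusted p = 0.367). None of these differences passed, which does not show that the responses were alike.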

How the data were processed

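Total RNA of 20 mouse colons was measured on 20 whole-transcript arrays, 1 for each mouse. The log2 values were deposited by the authors after RMA (background correction, quantile normalization and summary of probes), per the submitters' processing notes, and its version is not given in the sources used here. Of 41801 probe sets 29195 held values, and 22360 of them matched 1 gene symbol in the platform annotation, 1013 several and 5822 none. Genes with several probe sets (607) were read from the one with the highest mean. Genes were kept if above 5.30, the 25th percentile, on at least 4 of 20 arrays, which left 16739 and removed 4684. Array medians of the saline mice ran from 6.238 to 6.285, and precision is limited by having 4 arrays a group.

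With limma 3.58.1 in R 4.3.3, 1 model over all 20 arrays in 5 groups gave 15 residual and 4.03 prior degrees of freedom. The groups were healthy and colitis on saline, healthy and colitis on probiotic, and colitis on cyclosporine. Benjamini-Hochberg adjusted p-values were taken over all genes. The fit was tested on simulated data. The members and gene lists were chosen with earlier results of these data known. Genes were named mostly from a set fixed by rule, but not every gene of that set is named. The set held the 30 largest rises and 30 largest falls among genes that passed without overlap. It held the 10 smallest p-values in each direction and the 10 largest SDs over the colitis arrays. It also held the 10 smallest interaction p-values in each direction. Up to 8 members of each list by p, plus those that went the other way, completed it. Predicted genes, microRNAs and receptor segments were left out. Large changes not described above include Khdc1a (3.24), Capsl (-2.14) and Otc (-1.97). The choice within the set, and of any other gene, was made after the values were seen. Alternatives covered filters, scaling, weights, probe set choice, the 8 arrays alone, a replicate block, each mouse left out, and healthy mouse 2 and colitis mouse 6 left out together.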

Additional observations from a re-analysis of the deposited data

Results flagged for a closer look

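In 15 of 270 groups of 4 mice examined, 1 mouse lay far from the rest of its group by Dixon's criterion, which chance meets in about 1 group in 20. Healthy mouse 2 gave 6 of them. Clca4b was 8.60 in that mouse against 4.61 to 5.05 in the other healthy mice, and Dhrs9 was 8.48 against 6.06 to 6.39. Retnlb was 5.65 against 5.34 in each of the others, Spink4 11.35 against 10.65 to 10.74 and Muc1 8.97 against 8.66 to 8.69. B4galnt2 was lower, at 10.27 against 10.89 to 10.94. Among other healthy mice, mouse 4 had 8.87 for Slc6a4 against 9.11 to 9.16, and mouse 7 had 8.74 for Mir192 against 8.86 to 8.87.

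Colitis mouse 6 differed from its group in H2-Ab1, 10.92 against 11.77 to 11.89, in Acads, 9.47 against 8.96 to 9.01, and in Jak2, 10.22 against 10.31 to 10.32. Colitis mouse 7 had 7.42 for Slc37a2 against 8.37 to 8.55, and 6.53 for Ces1f against 5.95 to 5.98. Colitis mouse 5 had 6.00 for Dpyd against 6.42 to 6.47, and 7.07 for Cry1 against 7.43 to 7.48.

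Probe sets without a single gene symbol stand outside the comparisons of genes. Of 3887 such probe sets tested with limma, 243 were higher and 262 lower in colitis.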

How the results depend on the processing

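The settings were followed gene by gene for 135 genes, nearly all of them named here. Of the 132 of these that passed, 127 passed under every setting in which they were tested (19, or 18 for Kynu and Retnla), and 0 of the 135 reversed. Other named genes are not in this count, and some of them, such as Cldn4 and Jun, lost their call as given above. Without colitis mouse 7, Il1a (1.56, adjusted p = 0.0592, range over settings 0.00261 to 0.0609), S100a8 (1.89, 0.0763, range 0.00422 to 0.0763), Retnlg (2.16, 0.0863, range 0.0038 to 0.0863), Clec4e (1.73, 0.12, range 0.0026 to 0.12) and Cxcl10 (1.37, 0.0969, range 0.00268 to 0.0969) did not pass. Clec4e was also lost without healthy mouse 4, 6 or 7 or colitis mouse 10, with the trend and robust options (0.0518) and, like Il1a, with the 8 saline arrays alone (0.0532 and 0.0609). S100a8 (0.0506) and Retnlg (0.0511) were lost without healthy mouse 7, and Cxcl10 without healthy mouse 2 or 7 or colitis mouse 10. Leaving out 1 mouse at a time gave 1563 to 1963 rises, 1908 to 2462 falls, 254 to 455 rises of at least 2-fold and 120 to 148 such falls. The lowest count of 2-fold rises, 254, was without colitis mouse 7. With the 8 saline arrays alone there were 1379 rises and 1812 falls. The main fit treated the mice as unpaired. Deviations of same-numbered mice correlated at 0.05 and -0.03, but 2 shared numbers are too few to settle whether the numbers pair the mice. The replicate block gave 1434 rises and 1794 falls. The interaction had 0 calls, 5 with array weights and 1 with the replicate block, and the cause was not tested. The median change over all genes moved between -0.036 and -0.013 over these settings. Having 4 mice a group limits what can be called where the colitis mice spread over several log2 units.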
